A study of Arabidopsis lyrata subsp. lyrata with 8 samples.

Results

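Root and flower bud of Arabidopsis lyrata ssp. lyrata were compared for genes of the cell cycle and of DNA replication. The members were given as 57 locus codes of A. thaliana, and a gene model counted as a member when its name on the array held one of these codes. A gene model of the array carried the code of 31 of them, of 32386 gene models in all. The other 26 codes were not analysed here. Of the 31, 28 were tested, which means that every array of root, or every array of flower bud, measured the probe well above background. Roles are given below as known for the A. thaliana gene of that name.

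The plants, which the labels call col 0, were 6 weeks old, had been stratified as seed for 7 days and were grown hydroponically, with no treatment named. Each biological replicate was a pool of tissue from 8 to 10 plants, with 4 root and 4 flower bud arrays on 1 slide. RNA was labelled with Cy3 and hybridised to 1-colour Agilent arrays. Flower bud arrays 1 and 2 differed from each other by less than the scatter between spots of the same probe (variance ratio 0.687), and so did arrays 3 and 4 (0.789), while all other pairs within a tissue lay between 3.38 and 16.2. They were therefore averaged to 2 flower bud samples, called A and B, and the comparison rests on 4 samples of root and 2 of flower bud. On the slide, each tissue had a row of its own, and an effect of the row cannot be told apart from one of the tissue.

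Dividing plant cells copy their DNA in S phase and separate it in mitosis. Cyclin-dependent kinases (CDKs) drive both steps when bound to cyclins: D-type cyclins mainly act at entry into the cycle, A-type cyclins from S phase to mitosis, and B-type cyclins, with the plant-specific B-type CDKs, at the G2-to-M transition. Replication origins are bound by the origin recognition complex (ORC), which, with CDT1 and CDC6, loads the MCM helicase. In roots, division is concentrated in the meristem at the tip, and in flower buds in young floral organs and in the tissues that form pollen and ovules.

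Levels are given as log2 of the processed signal divided by the 75th percentile of the array, and differences as root minus flower bud on that scale, with the standard error of limma's fit. Levels of different probes are not comparable with each other. A gene was called when limma's adjusted p was under 0.05 and the difference at least 2-fold. Of the 28 tested members, 15 were called higher in root, where 23.7% of all 26420 gene models tested were, and 2 were called higher in flower bud, where 27.7% were. The other 11 were not called. The median difference over the members was 1.13, and over all gene models it was -0.03. All 4 root arrays lay above all 4 flower bud arrays for 20 members, against 38.3% of all gene models, and the reverse held for 2 members, against 40.6%.

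The members split by phase. The G2 and M phase genes were mostly higher in root, with 10 of 12 called there, none called in flower bud, and a median difference of 2.02. The S phase genes had none of 7 called in root and 1 called in flower bud, with a median of -0.11, close to that of all gene models. With the median of each array in place of its 75th percentile, or without flower bud sample B, 1 S phase gene (MCM5) was called in root and none in flower bud. Of 4 A-type cyclins, 3 were called in root and 1 in flower bud (median 1.13). The call in flower bud was that of CYCA2;1, which entered the test on its flower bud arrays alone. Of 3 D-type cyclins, 2 were called in root (median 1.24). Beside these counts, 23.7% of all gene models were called in root and 27.7% in flower bud. The calls in flower bud, 1 of 7 S phase genes and 1 of 4 A-type cyclins, were not above that share. No test was made of the difference between phases. In whole tissue, fewer cells of a type and less RNA per cell cannot be told apart.

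**Figure D1:**
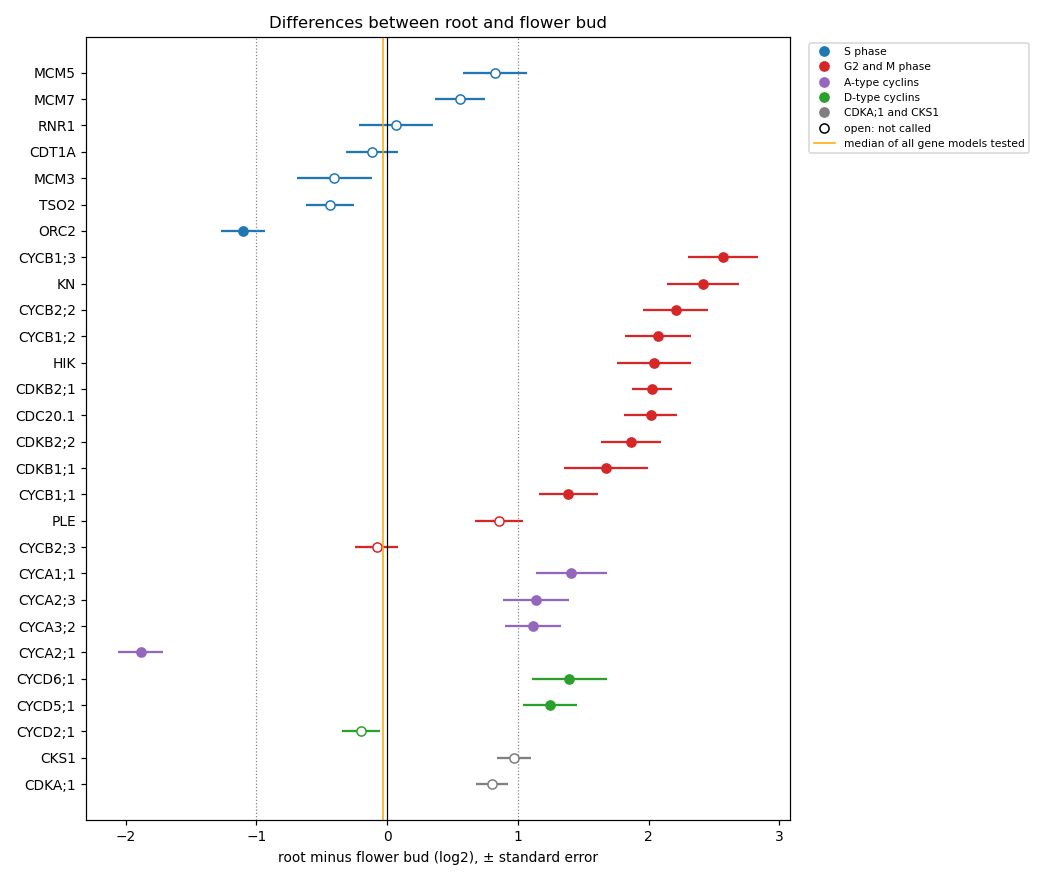
Difference between root and flower bud (x axis, root minus flower bud, log2) of each of the 28 tested members, with bars for the standard error of limma's fit (4 root and 2 flower bud samples). Filled points were called, open points were not, colours mark the phase, and dotted lines mark a 2-fold difference. All G2 and M phase members but PLE and CYCB2;3 lie beyond 2-fold on the root side, and the S phase members spread around the line at -0.03 that marks the median of all gene models.

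Both tissues were checked against their markers. All 6 root markers measured were called higher in root, with a summed level (signal over the array's 75th percentile, added over the markers) of 15.6 to 25.2 in root samples and 1.38 to 1.56 in flower bud samples, where 3 of the 6 were not well above background. All 4 flower bud markers were called higher in bud (0.189 to 0.313 in root, 79.2 to 98.5 in bud, with AP1 not well above background in any root array). Late pollen genes moved with the tissue as well: 3 of 3 were called higher in bud, at 0.0565 to 0.0983 in root and 144 to 150.5 in bud. So did the 8 gene models of photosynthesis genes, all called higher in bud, at 7.50 to 11.5 in root and 298 to 323 in bud. Their part in the differences below was not tested. Of the late pollen genes, VGD1 and AGP11 were well above background on 1 root array each, and the photosynthesis gene RBCS1B on 2. These genes, AP1 and the 3 root markers that were dim in bud entered the test on the arrays of 1 tissue alone. It was in each case the tissue where they were higher.

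The B-type cyclins activate CDKs at entry into mitosis. Of the 5 tested, 4 were called higher in root, where 23.7% of all gene models were. CYCB1;3 (AT3G11520) had levels of -0.11, -0.55, -0.79 and -0.68 in root replicates 1 to 4 and of -3.45 and -2.75 in flower bud samples A and B. All root samples lay above both bud samples, by 2.57 ± 0.27 on average (5.92-fold, limma adjusted p = 0.00017), the widest difference among the members, and 10.6% of all gene models tested differed at least as far in that direction. CYCB2;2 (AT4G35620) measured -3.41, -3.88, -3.91 and -3.50 in root and -6.22 and -5.55 in bud. Its groups did not overlap either, and the difference was 2.21 ± 0.25 (limma adjusted p = 0.000249).

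CYCB1;2 (AT5G06150) measured 0.04, -0.16, -0.22 and -0.13 in root and -2.63 and -1.75 in bud. The 4 root samples were close together, the 2 bud samples were 0.89 apart, and the groups did not overlap (2.07 ± 0.25, limma adjusted p = 0.000357). CYCB1;1 (AT4G37490), whose promoter is widely used to mark mitotic cells, measured -3.01, -3.44, -3.70 and -3.37 in root and -4.97 and -4.57 in bud. Root was higher by 1.39 ± 0.23 without overlap (2.61-fold, limma adjusted p = 0.00147), the smallest difference of the 4. CYCB2;3 (AT1G20610) was the exception. Its root levels of -4.43 to -3.97 spanned both bud levels of -4.12 and -4.08, and its difference was -0.08 with a 95% interval from -0.47 to 0.32. CYCB1;4, CYCB2;1, CYCB2;4 and CYCB3;1 were not analysed here.

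The B-type CDKs, made mainly from S phase to mitosis, were called higher in root in all 3 cases, beside 23.7% of all gene models. CDKB2;1 (AT1G76540) measured -1.84, -1.98, -1.83 and -1.73 in root and -4.04 and -3.69 in bud. The root samples spanned a narrow range far above the bud samples, and the difference of 2.02 ± 0.15 had the lowest adjusted p of all members (3.3e-05 by limma). CDKB2;2 (AT1G20930) measured -0.47, -0.63, -0.88 and -0.87 in root and -2.91 and -2.24 in bud. The groups were apart by 1.86 ± 0.23 (limma adjusted p = 0.000386). CDKB1;1 (AT3G54180) measured -0.69, -0.89, -1.27 and -1.84 in root and -2.86 and -2.82 in bud. It had the widest spread over root samples of any tested member (SD 0.508), yet its lowest root sample was still above both bud samples (1.67 ± 0.32, limma adjusted p = 0.00324). CDKB1;2 was not analysed here.

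Genes of cytokinesis and of mitotic exit followed. KNOLLE (KN, AT1G08560), the syntaxin that fuses vesicles at the cell plate, measured 0.04, -0.47, -0.45 and -0.38 in root and -3.15 and -2.31 in bud. Its difference was 2.42 ± 0.27 (5.34-fold, limma adjusted p = 0.000247), with no overlap. HINKEL (HIK, AT1G18370), a kinesin needed for the phragmoplast to widen, measured -2.06, -2.46, -2.07 and -1.60 in root and -4.41 and -3.77 in bud. Every root sample was above every bud sample, by 2.04 ± 0.28 on average (limma adjusted p = 0.000688).

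CDC20.1 (AT4G33270), an activator of the anaphase-promoting complex (APC/C), measured 2.29, 1.98, 1.65 and 1.77 in root and -0.04 and -0.15 in bud. Root was higher by 2.02 ± 0.20 (4.05-fold, limma adjusted p = 0.000138), and the groups did not overlap. This gene has a near-identical neighbour, CDC20.2, which was not analysed here, and whether its RNA binds the same probe was not tested. PLEIADE (PLE, AT5G51600), a MAP65 protein that crosslinks microtubules, also lay higher in all root samples, but its difference of 0.86 ± 0.19 was under 2-fold (limma adjusted p = 0.00554). It was called with the array median (1.13) and with quantile normalization (1.04). The Aurora kinase AUR2 was well above background on 3 root and 2 flower bud arrays and was not tested. TES, AUR1, MAD2 and BUB3.1 were not analysed here.

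**Figure D2:**
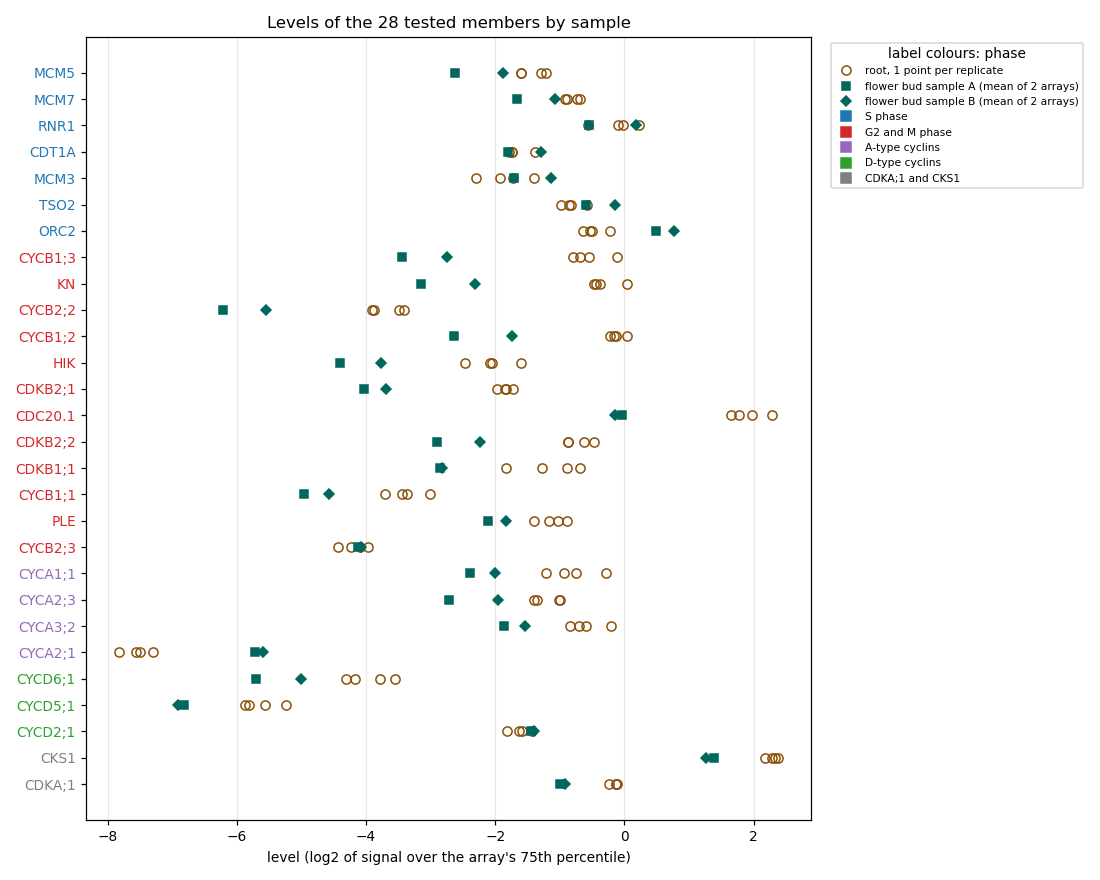
Level (x axis, log2 of signal over the 75th percentile of the array) of each tested member in every sample. Open circles are the 4 root replicates, and the filled square and diamond are flower bud samples A and B, each the mean of 2 arrays. For the G2 and M phase genes other than CYCB2;3 all circles lie to the right of both filled points, for MCM3, CDT1A, RNR1 and TSO2 they are mixed, and flower bud sample B lies to the right of sample A for 25 of the 28 members.

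S phase genes gave another picture. In the MCM helicase, which unwinds DNA at the fork, no measured subunit was called with the 75th percentile and all samples. MCM5 (AT2G07690) was higher in all root samples (-1.61 to -1.21) than in bud samples A (-2.62) and B (-1.88), but its difference of 0.83 ± 0.24 was under 2-fold (limma adjusted p = 0.0207). It was called higher in root with the array median (1.105), with quantile normalization (1.03) and without flower bud sample B (1.20). MCM7 (AT4G02060) differed in the same direction by 0.56 ± 0.19, also without overlap (limma adjusted p = 0.0374). MCM3 (AT5G46280) overlapped between tissues, with root at -2.29 to -1.39 and bud at -1.72 and -1.14, and its difference of -0.40 had a 95% interval from -1.09 to 0.29. MCM2, MCM4 and MCM6 were not analysed here.

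At the origin, ORC2 (AT2G37560), a subunit of the origin recognition complex, was the 1 S phase member that was called. It measured -0.22, -0.50, -0.64 and -0.53 in root and 0.49 and 0.76 in bud. Both bud samples were above all root samples, and the difference was -1.10 ± 0.17 (2.15-fold higher in bud, limma adjusted p = 0.00109). It fell short of 2-fold without flower bud sample B (-0.97) and, by more, with the median of each array in place of its 75th percentile (-0.82). CDT1A (AT2G31270), which helps to load the helicase, measured -1.78 to -1.39 in root and -1.81 and -1.29 in bud, so bud sample A was below and B above all root samples. Its difference was -0.11 (95% interval -0.60 to 0.37). ORC1A was not above background on any array and was not tested, and CDC6A was not analysed here.

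Ribonucleotide reductase supplies the nucleotides for replication. Its large subunit RNR1 (AT2G21790) measured 0.22, -0.02, -0.11 and -0.56 in root and -0.55 and 0.18 in bud. The 2 bud samples lay near opposite ends of the root range, and the difference was 0.07 (95% interval -0.62 to 0.76). The small subunit TSO2 (AT3G27060) measured -0.98 to -0.59 in root and -0.60 and -0.15 in bud, a difference of -0.44 (95% interval -0.89 to 0.01, limma adjusted p = 0.073). The sliding clamp PCNA2 was well above background on 2 root and 3 flower bud arrays and was not tested. PCNA1 and ICU2, the catalytic subunit of polymerase alpha, were not analysed here.

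A-type cyclins went both ways. CYCA1;1 (AT1G44110) measured -0.29, -0.75, -0.93 and -1.21 in root and -2.40 and -2.01 in bud. The root samples were all above the bud samples, and the difference was 1.41 ± 0.27 (2.66-fold, limma adjusted p = 0.00324). CYCA2;3 (AT1G15570), which in A. thaliana restrains endoreduplication together with CDKB1;1, measured -1.005, -1.41, -1.35 and -1.02 in root and -2.71 and -1.95 in bud. The difference was 1.14 ± 0.25, again with no overlap (limma adjusted p = 0.00586). CYCA3;2 (AT1G47210) measured -0.21, -0.70, -0.84 and -0.59 in root and -1.87 and -1.54 in bud. Root was higher by 1.12 ± 0.21 (limma adjusted p = 0.00313). Both of these were just past 2-fold: without flower bud sample A, CYCA2;3 differed by 0.76 and CYCA3;2 by 0.95, and without root replicate 1 CYCA3;2 differed by 0.99, all under 2-fold.

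CYCA2;1 (AT5G25380) ran against the others. It measured -7.82, -7.50, -7.56 and -7.30 in root and -5.72 and -5.60 in bud, so that both bud samples were above all root samples. The difference was -1.88 ± 0.17 (3.69-fold higher in bud, limma adjusted p = 8.49e-05). The gene was dim, and its probe was well above background on 1 of the 4 root arrays. It entered the test on its flower bud arrays alone, the tissue where it was higher. With the normexp background correction the difference shrank to -0.46 with the 75th percentile and to -0.40 with quantile normalization, and it was no longer called. CYCA2;2, CYCA2;4 and CYCA3;1 were not analysed here.

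D-type cyclins bind CDKA;1 and relieve the block by the retinoblastoma-related protein RBR1. CYCD6;1 (AT4G03270), known in A. thaliana for the formative divisions of the root ground tissue, measured -3.55, -3.79, -4.17 and -4.31 in root and -5.70 and -5.01 in bud. All root samples were above the bud samples, by 1.39 ± 0.29 on average (2.63-fold, limma adjusted p = 0.00451). CYCD5;1 (AT4G37630) measured -5.57, -5.81, -5.24 and -5.88 in root and -6.82 and -6.91 in bud. It was dim but well above background on every array, and the difference was 1.24 ± 0.21 without overlap (limma adjusted p = 0.00158), which normexp correction reduced to 0.77 and, with quantile normalization, 0.87, both under 2-fold. CYCD2;1 (AT2G22490) measured -1.43, -1.59, -1.63 and -1.81 in root and -1.44 and -1.40 in bud. Root replicate 1 lay between the bud samples, and the difference was -0.20 (95% interval -0.55 to 0.16, limma adjusted p = 0.26). CYCD1;1, CYCD3;1, CYCD3;2, CYCD3;3, CYCD4;1 and CYCD7;1 were not analysed here, so the 3 measured genes stand for only a small share of the 9 D-type cyclins given.

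CDKA;1 (AT3G48750), the CDK that acts throughout the cycle, and CKS1 (AT2G27960), a small protein that binds CDKs, are not tied to 1 phase. CDKA;1 measured -0.24 to -0.12 in root and -1.01 and -0.91 in bud. CKS1 measured 2.18 to 2.37 in root and 1.38 and 1.26 in bud. Both were higher in root in every sample, by 0.80 ± 0.12 (limma adjusted p = 0.00101) and 0.97 ± 0.13 (limma adjusted p = 0.00053), and both were under 2-fold. With the array median both were called (CDKA;1 at 1.08 and CKS1 at 1.25), and CKS1 was also called without root replicate 1 (1.01) and without flower bud sample A (1.03). CKS2 was not analysed here.

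Within flower bud, the members differed between samples A and B. The level in B was above that in A for 25 of 28 members (89.3%), where 51.3% of all gene models were. The median of B minus A was 0.57 over the S phase genes, 0.52 over the G2 and M phase genes, 0.36 over the A-type cyclins and 0.04 over the D-type cyclins, and it was 0.01 over all gene models. The 2 arrays averaged into each sample differed in size by a median of 0.04 over the members in both A and B. CYCB1;2 (0.89), KN (0.84) and CYCA2;3 (0.76) differed most between the samples, followed by MCM5 (0.74) and RNR1 (0.73). The exceptions with B below A were CYCD5;1 (-0.09), CDC20.1 (-0.11) and CKS1 (-0.12). With 1 sample each, this difference has no replicate check.

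Over the root samples the members also tended to move together. Root replicate 1 was the highest of the 4 for 19 of 28 members, against 32.0% of all gene models. The median deviation of root replicate 1 from the root mean was 0.25 for S phase genes and 0.25 for G2 and M phase genes, and over all gene models it was 0.00. The members' SD over root samples had a median of 0.214, near the 0.227 of all gene models, and ranged from 0.0555 (CDKA;1) to 0.508 (CDKB1;1). Spots of the same probe within an array had a median SD of 0.064 over the 25 members with several usable spots, which is technical scatter only. Without root replicate 1 the median of the G2 and M phase genes was 1.96, and 15 members were called in root, with CYCA3;2 (0.99) lost and CKS1 (1.01) gained.

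**Figure D3:**
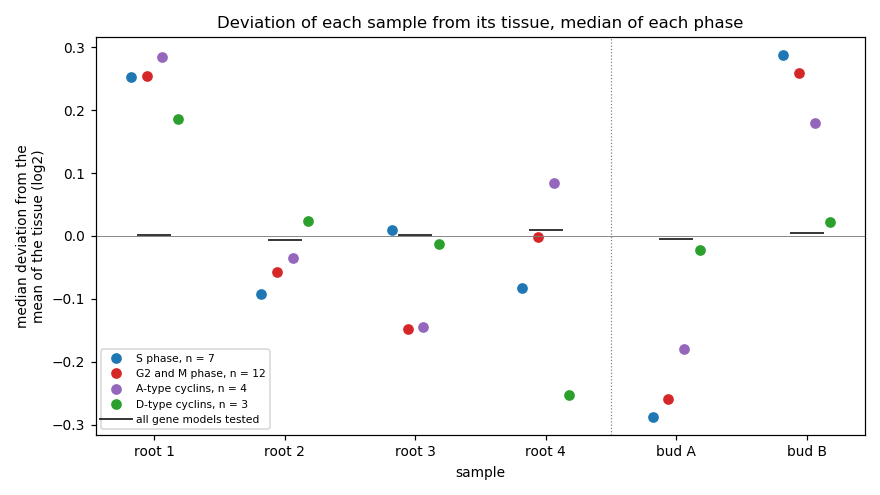
Median deviation of each sample from the mean of its tissue (y axis, log2) for the members of each phase (coloured points) and for all gene models tested (black dashes). The S and G2 and M phase medians are 0.25 in root replicate 1, -0.29 and -0.26 in flower bud sample A and 0.29 and 0.26 in flower bud sample B, while the dashes stay near 0 in every sample; the values of A and B mirror each other because their mean is the tissue's mean.

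The scaling of the arrays sets where 0 lies. Signals at the 75th percentile were between 2541 and 4468 in root and between 4803 and 5118 in flower bud. Scaled to 7 spike-in control probes in place of the 75th percentile, the median difference of all gene models was -0.71, and root was called higher for 3958 gene models (15.0%) and flower bud for 10536 (39.9%), against 6259 and 7325 with the 75th percentile. With the array median the balance turned, with 7725 called higher in root and 6384 in flower bud, and with quantile normalization the numbers were 7046 and 6595. With spike-in scaling, 8 members were called higher in root, all of them G2 and M phase genes, from 1.19 to 1.89. They were CYCB1;2, CYCB1;3, CYCB2;2, CDKB2;1, CDKB2;2, KN, HIK and CDC20.1. On the same spike-in scale, 3 were called higher in flower bud (CYCA2;1, ORC2 and TSO2). CYCB1;1 (0.71), CDKB1;1 (0.99), CYCA1;1 (0.73), CYCA2;3 (0.46), CYCA3;2 (0.44), CYCD5;1 (0.57) and CYCD6;1 (0.72) were no longer called. The phase medians were -0.79 for S phase, 1.34 for G2 and M phase, 0.45 for A-type and 0.57 for D-type cyclins. Spike-in scaling adds 1 constant per array, so all genes shift by the same amount by construction.

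**Figure D4:**
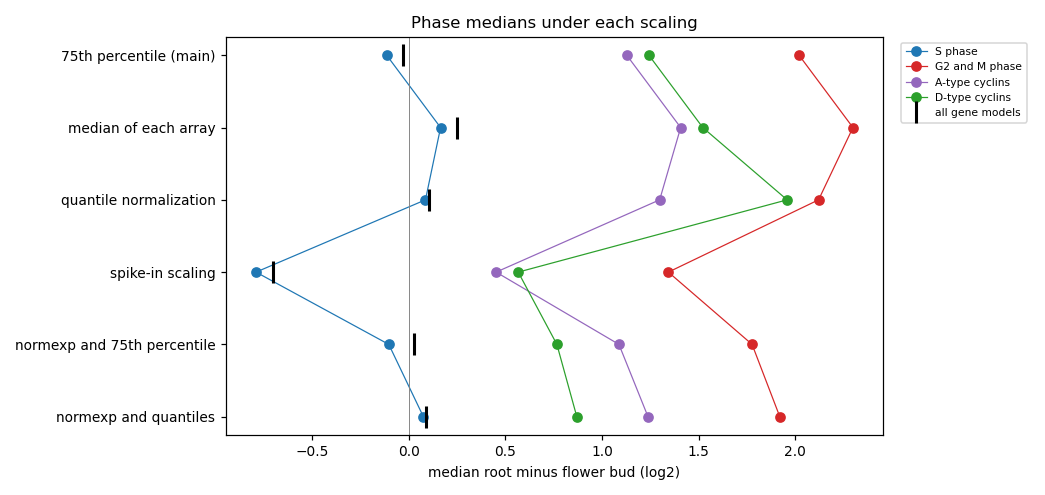
Median difference between root and flower bud (x axis, root minus flower bud, log2) of the members of each phase under 6 scalings of the arrays (y axis), with black marks for all gene models tested. The S phase median stays beside the mark of all gene models in every scaling, from -0.79 to 0.16, and the G2 and M phase median lies to the right of the other phases throughout, from 1.34 to 2.30.

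Further genes of the cell cycle were read from lists of regulators and machinery. Of 8 genes for the transcriptional regulators E2F, DP, RBR1 and MYB3R, 1 was called, higher in root, beside 23.7% of all gene models. It was MYB3R4 (AT5G11510), known in A. thaliana to activate genes of G2 and M phase, which measured -2.17 to -1.79 in root and -5.05 and -4.54 in bud, so the tissues were far apart. Its difference was 2.81 ± 0.20 (7.03-fold higher in root, limma adjusted p = 2.13e-05). The median of that list was -0.06. Of 6 CDK inhibitor genes, 3 were called higher in bud, beside 27.7% of all gene models, 1 was called higher in root, beside 23.7%, and the median was -1.66. KRP7 (AT1G49620) differed by -3.46 ± 0.40 and SMR1 (AT3G10525), also known as LGO, by -2.96 ± 0.27, while SMR4 (AT5G02220) was higher in root by 2.45 ± 0.32 (limma adjusted p = 0.000282, 8.15e-05 and 0.000508). All 3 encode inhibitors of CDK-cyclin complexes, and none of them overlapped between tissues.

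Of 8 APC/C genes, 1 was called in each direction (median -0.17), beside 23.7% of all gene models in root and 27.7% in bud. CCS52B (AT5G13840), an activator of the complex that acts in mitosis, was higher in root by 2.44 ± 0.18 (limma adjusted p = 2.55e-05), and CDC27A (AT3G16320), a subunit, differed by -1.29 ± 0.17 (limma adjusted p = 0.00059). Among 4 CDK-activating kinase genes, CDKD;1 (AT1G73690) was called higher in root (1.38 ± 0.25, limma adjusted p = 0.00235). Of 4 other A- and D-type cyclins, CYCA3;3 (AT1G47220) was higher in root by 1.08 ± 0.16 (limma adjusted p = 0.000824), and CYCA1;2 (AT1G77390, TAM), known for its part in meiosis, was higher in bud (-1.26 ± 0.28, limma adjusted p = 0.00604). Of 2 meristem regulators, CLV1 (AT1G75820) was called higher in root (1.29 ± 0.21, limma adjusted p = 0.00163). The called shares of all these small lists stand beside the same 23.7% in root and 27.7% in bud.

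The lists of further machinery were measured for more genes. Of 22 other genes of the replication fork and origin, none was called in root and 3 were called in bud, with a median of -0.03. The 2 largest differences were those of POLD3 (AT1G78650), a subunit of polymerase delta (-2.18 ± 0.16, limma adjusted p = 2.71e-05), and of ORC6 (AT1G26840), a further ORC subunit (-2.14 ± 0.38, limma adjusted p = 0.00233). Of 16 other genes of mitosis and cytokinesis, 6 were called in root and none in bud, with a median of 0.34. Among the 6, ATK5 was not well above background on any flower bud array. It entered the test on its root arrays alone, the tissue where it was higher. BUBR1 (AT2G33560), of the spindle checkpoint family, was higher in root by 3.31 ± 0.20 (9.88-fold, limma adjusted p = 1.19e-05), and POK2 (AT3G19050), a kinesin of the division plane, by 2.74 ± 0.28 (limma adjusted p = 0.000144). These shares, 6 of 16 in root and 3 of 22 in bud, stand beside 23.7% and 27.7% of all gene models.

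Histones H3.1 and H4 are made in S phase. Of their 12 gene models, 6 were called higher in root, where 23.7% of all gene models were, and none in bud, where 27.7% were, with a median of 1.12. The H3.1 gene AT5G10400 differed by 1.94 ± 0.32 (limma adjusted p = 0.00156) and the H4 gene AT5G59690 by 1.56 ± 0.14 (limma adjusted p = 6.9e-05). Their copies are near-identical, so a probe's value may hold RNA of several copies. The codes AT1G07820 and AT3G45930, called, and AT5G59970, not called, each entered more than once. The gene models thus stand for fewer genes. The median of the S phase members was -0.11, and no test compared these lists.

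**Figure D5:**
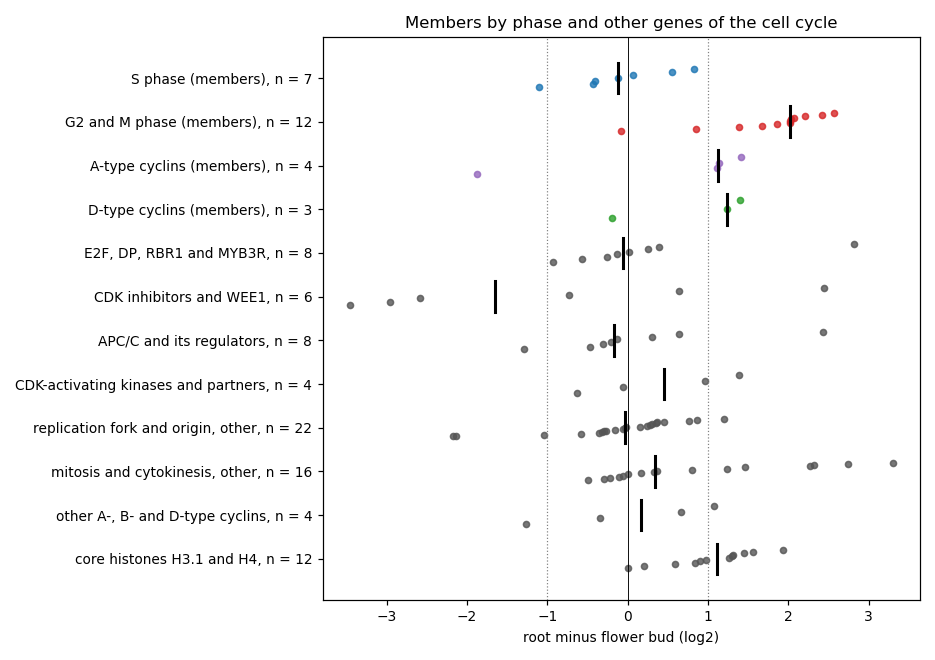
Difference between root and flower bud (x axis, root minus flower bud, log2) of the members by phase (coloured) and of gene models in lists of other cell cycle genes (grey), with the number tested beside each name. Black bars are medians and dotted lines mark a 2-fold difference; the G2 and M phase members lie farthest to the right as a group (median 2.02), and the CDK inhibitors farthest to the left (-1.66).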

How the data were processed

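RNA levels were measured on 8 one-colour Agilent arrays. The deposited scanner files hold spot intensity values processed by the authors with Agilent Feature Extraction 10.10.1.1, per the file headers: background-subtracted signals not yet normalized between arrays. The deposited value table holds log2 values; set against the scanner files, these match log2 signals minus the array's 75th percentile, centred per probe (r of at least 0.999997). The other columns used from the deposited files are flags and probe names, per the file headers.

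Outlying spots were dropped (15 probes lost all spots), spots were averaged per probe, log2 values were centred on each array's 75th percentile over non-control probes, and the brightest probe stood for a gene model. The names of 12409 of the array's 32386 models (38.3%) hold an A. thaliana locus code. Of 32371 models, 26420 passed the filter (well above background, in at least 0.5 of spots, on all arrays of 1 tissue); 27 of the 28 tested members did so on all 8 arrays. Root was compared with flower bud by limma 3.58.1 (R 4.3.3; lmFit and eBayes, two-sided), with Benjamini-Hochberg adjustment over all models tested. A call needed adjusted p under 0.05 and 2-fold. The fit had 4 residual degrees of freedom, and the number of arrays limits precision. It was tested on simulated data. Tables and figures used Python 3.11.15.

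The design text calls each pool a biological replicate. The p-values here rest on the spread among the root pools and between flower bud samples A and B, moderated by limma. They do not rest on the spread among all flower bud pools. Same-numbered root and flower bud arrays deviated from their means with correlations of -0.06, 0.04, -0.01 and -0.02. The averaged flower bud arrays moved together, so this check cannot show whether the numbers pair samples. The members and lists were chosen with earlier results of these data known. Values in every sample are given for called members and all measured D-type cyclins; of each list, up to 2 called genes per direction with the largest fold are named. Alternatives covered normalization, background correction, the dim-probe filter, the call rule, probe choice, the deposited table, the sample unit and leaving out samples.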

Additional observations from a re-analysis of the deposited data

Results flagged for a closer look

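Among the 31 members on the array, 2 had a root sample whose gap to the other 3 made up most of the range. The level of CDKA;1 in root replicate 4 was -0.24, where the other root samples lay between -0.14 and -0.12, so that the gap made up 0.891 of the range. The gap was small in size, as the SD of CDKA;1 over root samples (0.0555) was the lowest of the tested members. Spots of its probe within an array had an SD of 0.0722. The level of CDT1A in root replicate 1 was -1.39, where the others lay between -1.78 and -1.74 (0.877 of the range). Both are beyond Dixon's 95% limit for 4 samples, and chance flags about 1 in 20 groups.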

How the results depend on the processing

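Under 17 alternative settings, 434 of 475 member values kept their call and direction, and 8 of the 17 called members, all higher in root, kept their call in every setting. Some settings reused the same or nearly the same differences: the deposited table, the mean of a model's probes, no dim-probe filter and both 8-array fits. Each of these kept 28 of 28 members, which raises the total. Spike-in scaling kept 18, the array median 20, quantile normalization 24 and normexp 25 with the 75th percentile and 23 with quantiles. Spike-in scaling gave 8 members higher in root and 3958 gene models, with phase medians of -0.79 (S), 1.34 (G2 and M), 0.45 (A-type) and 0.57 (D-type), and turned RNR1 to -0.61 and MCM7 to -0.12. The array median gave 19 members higher in root and 1 in bud, medians of 0.16 (S), 2.30 (G2 and M) and 1.41 (A-type), and turned CYCB2;3 to 0.20, CDT1A to 0.16 and CYCD2;1 to 0.079. Quantile normalization gave 17 members higher in root, medians of 0.086 (S) and 1.96 (D-type), CYCB2;3 at 0.39 and CDT1A at 0.088. Normexp with the 75th percentile gave 1 member higher in bud, medians of 1.78 (G2 and M) and 0.77 (D-type), and CYCB2;3 at 0.056; with quantiles it gave 1 member higher in bud, medians of 0.075 (S) and 0.87 (D-type), CYCB2;3 at 0.32, CDT1A at 0.075 and CYCD2;1 at 0.043. With only models well above background on all 8 arrays, 4391 of 21733 models and 1 member were higher in bud. Models not well above background on all 8 arrays were not tested there, CYCA2;1 among them. This also removed models bright in flower bud but not in root, such as AP1. Leaving out 1 sample gave medians from -0.37 to 0.14 (S), 1.69 to 2.20 (G2 and M), 0.85 to 1.40 (A-type) and 1.05 to 1.33 (D-type). Each fit without a root replicate gave 15 members higher in root and 2 in bud. The fits without flower bud sample A or B kept 1 flower bud sample, which was assumed to vary like root. RNR1 ranged from -0.30 without flower bud sample A to 0.43 without B and was -0.05 without root replicate 1; CYCB2;3 ranged from -0.15 to 0.004 (without root replicate 3), and CDT1A was 0.14 without flower bud sample B. Apart from the settings whose construction is named, the cause was not tested. With all 8 arrays and the replicate number as a block (replicate block), 15 members were higher in root, 2 in bud, and 6318 gene models in root, so the block changed no member's call. Signal over background limits AUR2, PCNA2, ORC1A and CYCA2;1.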
